A study of Ovis aries with 8 samples.

Results

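The genes described here are the fibroblast growth factor (FGF) receptors FGFR1 to FGFR4, the ligands FGF2, FGF7 and FGF10, the intracellular family member FGF12, the coreceptor KLB and the feedback inhibitor SPRY2, in islets of fetal sheep. Members were the rows of the deposited table whose gene name equals one of these 10 symbols, and 8 of the 10 were found among 25000 rows, each in a single row. FGF10 and SPRY2 matched no row and were not analysed here. Of the 8 genes, 7 had a mean of at least 1 FPKM (fragments mapped to a gene, scaled by its transcript length and by the depth of the library) over all animals and were tested, and KLB lay below that level.

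FGF receptors are receptor tyrosine kinases that dimerise when a ligand binds together with heparan sulfate, and they signal mainly through the adaptor FRS2 to the RAS-ERK cascade. Sprouty proteins and dual-specificity phosphatases are induced by that cascade and damp it. In the developing pancreas, FGF7 and FGF10 are made by the mesenchyme and act on the epithelium through the FGFR2 splice form that binds them, and FGFR1 has been placed downstream of the transcription factor PDX1 in beta cells. FGF12 is not secreted and binds voltage-gated sodium channels. KLB, or beta-Klotho, lets FGF receptors respond to the endocrine ligands FGF19 and FGF21.

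The islets were isolated and hand-picked from near-term singleton fetuses of Columbia-Rambouillet crossbred ewes. In the norepinephrine group, 4 fetuses received norepinephrine bitartrate intravenously for 7 days, at 1 µg/min on day 1, 2 µg/min on days 2 to 4 and 4 µg/min on days 5 to 7. In the control group, 4 fetuses received the diluent, saline with ascorbic acid. Control fetuses were 139 to 140 days of gestation and weighed 3.6 to 5 kg, norepinephrine fetuses were 137 to 139 days and weighed 2.8 to 3.7 kg, and control 2 and norepinephrine 3 were the female fetuses. Each sample is a separate animal, and ± values are SDs over the n = 4 animals of a group unless another n is given.

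Animal numbers start with 09 or with 10, a prefix whose meaning the labels do not give, and the libraries fell into 2 sets along it. Summed FPKM was 981583 to 1112620 in the 4 animals numbered 09 and 768021 to 796149 in the 4 numbered 10, and the first principal component (28.9% of the variance) separated them. Of the animals numbered 09, 1 was a control and 3 were norepinephrine animals, and of those numbered 10, 3 were controls and 1 was a norepinephrine animal. Treatment and prefix are therefore partly confounded, and differences of the members are also given with the number prefix in the model or within each prefix. Islet markers were present in every library: PDX1 ran from 211.2 to 317.0 FPKM, GCG (glucagon) from 702.7 to 4108 and SST (somatostatin) from 113.2 to 1858. MAFA, IRX2 and HHEX of the marker lists matched no row. Acinar markers (7 of 11 matched, none at 0 in all animals) summed to 83.1 to 131.8 FPKM in controls and 120.5 to 798.9 with norepinephrine, and all 5 tested acinar markers had higher means with norepinephrine (median log2 1.25). By limma 0 of the 5 passed after adjustment (lowest adjusted p = 0.352). With the number prefix in the limma model CTRC turned from 0.17 to -0.56, CPA1 went from 1.25 to 0.54 and CEL stood at 0.68 in that fit, while CPB1 stood at 2.00 and CELA1 at 1.00. Duct markers (5 of 7, none at 0) summed to 300.2 to 385.3 in controls and 365.1 to 599.9 with norepinephrine, and KRT7 and MUC1 had log2 differences of 0.99 and 0.98 (0.63 and 0.62 with the prefix, limma adjusted p of 0.600 and 0.660 without it). Mesenchymal markers (7 of 9, none at 0) summed to 508.1 to 800.9 and 362.7 to 1900, and endothelial markers (6 of 7, none at 0) to 132.5 to 190.4 and 102.9 to 182.4. Because these are bulk islets, fewer cells of a type and less RNA per cell cannot be told apart.

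FGFR1, FGF7 and FGFR3 were the most abundant of the genes, and FGFR2 and KLB the least. Averaged over the 8 animals, with each SD over n = 8, FPKM was 71.5 ± 21.0 for FGFR1, 56.1 ± 19.6 for FGF7, 51.3 ± 9.24 for FGFR3, 17.5 ± 5.80 for FGF12, 12.6 ± 3.20 for FGF2, 10.6 ± 2.84 for FGFR4, 5.94 ± 2.38 for FGFR2 and 0.584 ± 0.320 for KLB. FGFR1 lay at percentile 85.0 of the mean FPKM of the 13252 tested genes and FGFR2 at percentile 25.8. FPKM is scaled per length, so values of genes can be set side by side. An exact two-sided sign-flip permutation test over the 8 animals was run on the log2(FPKM + 1) values of all 28 pairs. Its p measures the spread between animals only, and an error in the length or read assignment of a gene would recur in every animal. FGFR1, FGFR3 and FGF2 share their locus entries with other genes. The test separated 24 pairs of FPKM values (Benjamini-Hochberg adjusted over the 28, smallest raw p possible 0.0078). The 4 pairs not separated were neighbours or near neighbours in the order: FGFR1 and FGF7 (FGFR1 higher in 4 of 8 animals, exact permutation adjusted p = 0.194), FGFR3 and FGF7 (FGFR3 higher in 3 of 8, adjusted p = 0.742), FGF2 and FGF12 (FGF2 higher in 2 of 8, adjusted p = 0.0788), and FGFR4 and FGF2 (FGFR4 higher in 3 of 8, adjusted p = 0.211).

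FGFR1 exceeded FGFR3 in 7 of 8 animals, by 0.44 on the log2 scale (exact permutation adjusted p = 0.0365). In the 8 runs that left out 1 animal the difference was 0.38 to 0.55. The exact permutation adjusted p was 0.0190 without norepinephrine 1 and 0.0547 to 0.0729 in the other 7 runs. The exception among the animals was norepinephrine 1, where the ratio of FGFR1 to FGFR3 was 0.803. In the other norepinephrine animals the ratio was 1.18 to 1.32, and in controls it was 1.86, 1.89, 1.17 and 1.82. Every control except control 3 therefore had a larger excess of FGFR1 over FGFR3 than any norepinephrine animal.

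**Figure D1:**
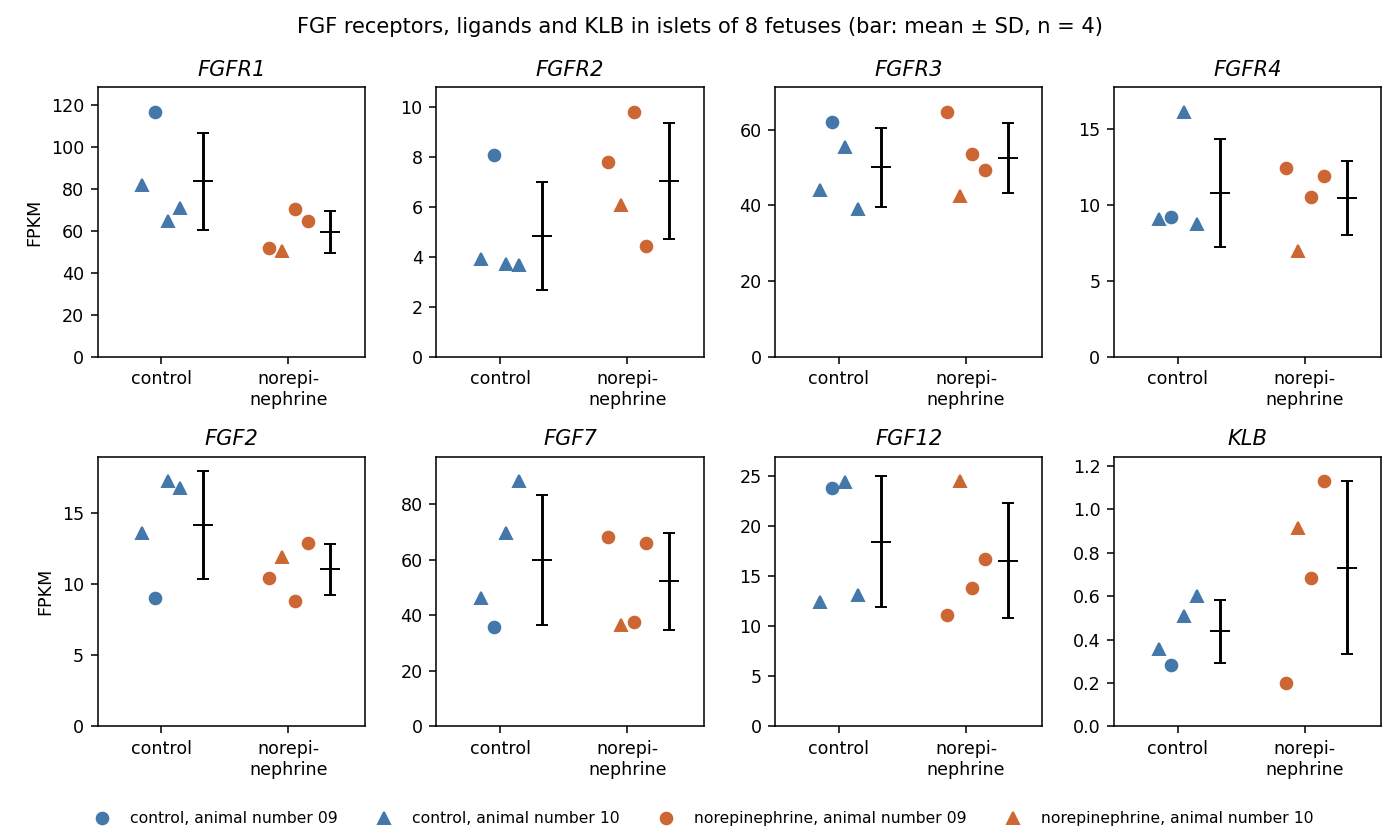
FPKM of the 8 listed genes in each animal (y axes start at 0 and differ between panels), with controls in blue and norepinephrine animals in orange, circles for animal numbers starting 09 and triangles for 10, and bars for the mean ± SD of n = 4. FGFR1 is highest in control 2 at 116.7 and lies between 50.2 and 70.6 with norepinephrine, and in all 8 panels the groups overlap.

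No gene passed the comparison of norepinephrine with control. By limma on log2(FPKM + 1), 0 of the 7 tested genes and 0 of all 13252 tested genes (0%) had an adjusted p under 0.05. At an unadjusted p under 0.05 there was 1 of the 7, FGFR1, against 975 of all genes (7.36%, with 3.61% higher and 3.74% lower). In 0 of the 7 were the groups free of overlap, against 4.23% of all genes (1.88% with norepinephrine higher and 2.35% lower). The median log2 difference of the 7 was -0.14, beside 0.02 over all tested genes, with 5 lower and 2 higher means.

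FGFR1, the receptor most abundant here (chromosome 26, 32071476 to 32284341 on Oar_v3.1, a locus entry it shares with LETM2, WHSC1L1 and 1 unnamed gene), stood at 81.9, 116.7, 64.5 and 71.0 FPKM in controls 1 to 4. With norepinephrine it stood at 52.0, 50.2, 70.6 and 64.9. All 4 norepinephrine animals were below the control mean and 2 were below every control, while norepinephrine 3 and 4 overlapped the lowest controls. The means were 59.4 ± 9.93 with norepinephrine and 83.5 ± 23.3 in controls, 0.711 of the control mean. The log2 difference was -0.46 (SE 0.20, 95% interval -0.91 to -0.01, limma adjusted p = 0.666), and the exact permutation test over the 8 animals gave a two-sided p = 0.0857.

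FGFR1 was also lower within each group of animal numbers. Among animals numbered 09, the control was at 116.7 and the norepinephrine animals at 52.0, 70.6 and 64.9. Among those numbered 10, the norepinephrine animal was at 50.2 and the controls at 81.9, 64.5 and 71.0. The log2 differences were -0.90 in 09 and -0.51 in 10, and with the prefix in the limma model the difference was -0.71 (95% interval -1.07 to -0.35, adjusted p = 0.307). In that model 0 of the 7 genes passed after adjustment, against 1 of all genes (0.00755%), and FGFR1 was the 1 of 7 with an unadjusted p under 0.05, against 11.7% of all genes (7.14% lower). Lying wholly below the controls within both number groups, a count made after the values were seen, was shared by 12.0% of all tested genes, and 9.72% lay wholly above. The difference became -0.29 without control 2 (limma adjusted p = 0.372), the highest library for FGFR1. Control 2 is the only control numbered 09, so that run holds no control of that prefix. The value of -0.90 within 09 also rests on this 1 control. With library totals made equal the FGFR1 difference was -0.61, beside a median of -0.12 over all genes.

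PDX1, a regulator of beta-cell identity, gave no call either. It stood at 269.5, 279.0, 267.8 and 211.2 FPKM in controls and at 309.6, 236.9, 317.0 and 225.9 with norepinephrine, so the groups overlapped (log2 0.08, 95% interval -0.29 to 0.44, limma adjusted p = 0.922, and -0.08 with equal library totals). The median of all genes with equal totals was -0.12. Norepinephrine 1 and 3 had the highest PDX1 of the 8 animals and FGFR1 of 52.0 and 70.6.

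FGFR2, the receptor of FGF7 and FGF10 in epithelium (chromosome 22, 40407331 to 40510126), stood at 3.90, 8.07, 3.69 and 3.69 FPKM in controls and at 7.82, 6.07, 9.81 and 4.42 with norepinephrine. Only control 2, numbered 09, reached the norepinephrine range, and the other 3 controls, all numbered 10, were below every norepinephrine animal. The means were 7.03 ± 2.32 with norepinephrine and 4.84 ± 2.16 in controls, which on the log2 scale is 0.47 higher (SE 0.28, 95% interval -0.16 to 1.11, limma adjusted p = 0.730). Within prefix 09 the FGFR2 difference was -0.18 and within prefix 10 it was 0.57, while the limma model that held the prefix gave 0.20 (adjusted p = 0.838). Between number groups FGFR2 was 7.53 ± 2.26 FPKM in 09 and 4.34 ± 1.16 in 10. Norepinephrine 3 had both the highest FGFR2 and the highest acinar sum, 798.9 FPKM, whereas control 2, second in FGFR2, had an acinar sum of 120.0. Norepinephrine 3 also had the highest duct sum, 599.9, and that of control 2 was 369.6. The part of acinar or duct RNA in the FGFR2 values was not tested.

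FGFR3 (chromosome 6, 115630692 to 116296881, a locus entry with 15 rows) stood at 44.1, 61.9, 55.4 and 39.0 FPKM in controls and at 64.7, 42.5, 53.5 and 49.2 with norepinephrine. The groups overlapped over almost their whole ranges. The log2 difference was 0.07 (95% interval -0.34 to 0.48, limma adjusted p = 0.933), and it was -0.08 with equal library totals and -0.13 with the prefix in the model. Under equal totals the median of all genes was -0.12.

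FGFR4 (chromosome 5, 36052758 to 36060143) stood at 9.06, 9.18, 16.1 and 8.73 FPKM in controls and at 12.4, 6.95, 10.5 and 11.9 with norepinephrine. Control 3 stood alone above all other animals and norepinephrine 2 was the lowest. The log2 difference was -0.03 (95% interval -0.56 to 0.51, limma adjusted p = 0.981), and 0.17 without control 3. Within prefix 09 it was 0.30 and within prefix 10 it was -0.58.

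As a share of the summed FPKM of the 4 receptors, FGFR1 made up 58.9%, 59.6%, 46.2% and 58.0% in controls and 38.0%, 47.5%, 48.9% and 49.7% with norepinephrine. Control 3 lay among the norepinephrine animals and the other controls above all of them. FGFR3 made up 31.6% to 39.6% in controls and 37.1% to 47.3% with norepinephrine, and FGFR2 2.64% to 4.12% and 3.39% to 6.79%. FGFR4 made up 4.69% to 11.5% and 6.57% to 9.12%. Shares of one sum move against each other, so these values describe the make-up and were given no test. The summed receptor FPKM itself was 149.2 ± 32.1 in controls and 129.4 ± 16.8 with norepinephrine.

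**Figure D2:**
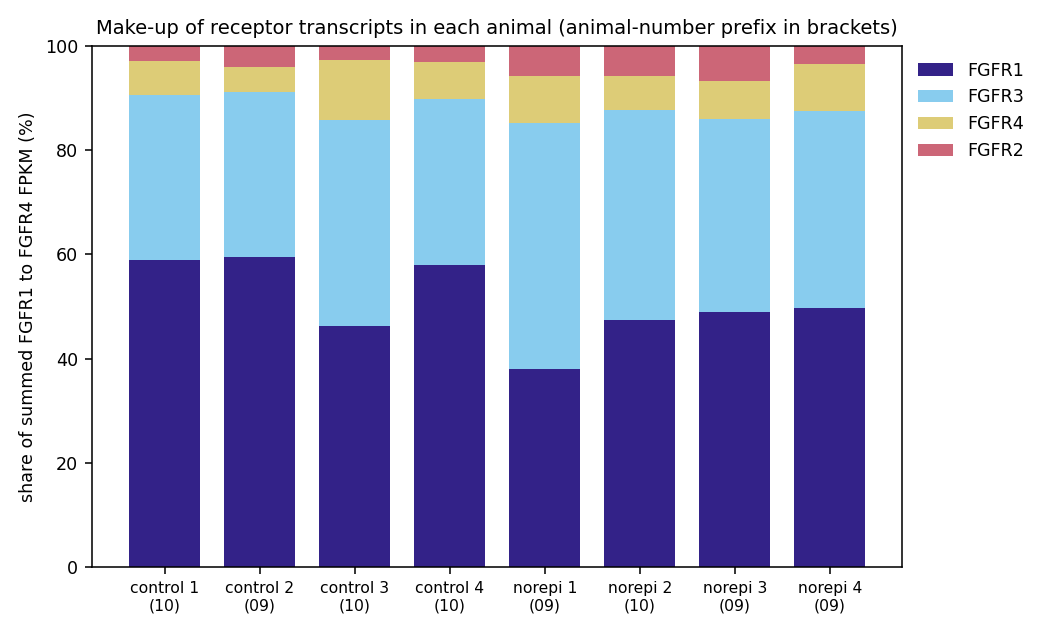
Share (%, y axis) of each receptor in the summed FGFR1 to FGFR4 FPKM of each animal (x axis, number prefix in brackets). FGFR1 is the largest part in every animal except norepinephrine 1, where FGFR3 is at 47.3% and FGFR1 at 38.0%.

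Among the ligands, FGF2, a broadly expressed factor that binds several FGF receptors, stood at 13.6, 9.06, 17.2 and 16.8 FPKM in controls and at 10.5, 11.9, 8.85 and 12.9 with norepinephrine. All 4 norepinephrine animals were below the control mean, and control 2 was lower than 3 of them. The means were 11.0 ± 1.78 with norepinephrine and 14.2 ± 3.78 in controls (log2 -0.31, 95% interval -0.78 to 0.17, limma adjusted p = 0.771). With the number prefix in the model the difference was -0.08, and it was 0.21 within prefix 09 and -0.38 within prefix 10. FGF2 was higher in animals numbered 10 (14.9 ± 2.56 FPKM) than in those numbered 09 (10.3 ± 1.87), a log2 difference of 0.45 with treatment in the model (limma adjusted p = 0.142) and of 0.86 with equal library totals (adjusted p = 0.0123), a scaling under which the median of all genes was 0.31.

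FGF2 (chromosome 17, 34113507 to 34661626) shares its locus entry with NUDT6, a gene known to overlap FGF2 in antisense. No source used here says whether strand was used in assigning reads. Reads of the overlap can therefore not be told apart, and the FGF2 values are uncertain. NUDT6 stood at 7.08 ± 1.97 FPKM in controls and 7.58 ± 0.583 with norepinephrine, and it was highest in control 2, at 10.0, where FGF2 was at 9.06.

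FGF7, keratinocyte growth factor (chromosome 7, 57779972 to 57841735), stood at 46.4, 35.9, 69.5 and 88.3 FPKM in controls and at 68.3, 36.6, 37.7 and 66.2 with norepinephrine. Each group held 2 animals at or below 46.4 and 2 at or above 66.2, and the groups overlapped. The means were 52.2 ± 17.4 with norepinephrine and 60.0 ± 23.5 in controls (log2 -0.18, SE 0.32, 95% interval -0.89 to 0.53, limma adjusted p = 0.904). The difference was 0.61 in animals numbered 09 and -0.83 in those numbered 10. A limma test of that contrast between the number groups gave -1.44 (95% interval -2.93 to 0.04, adjusted p = 0.848).

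FGF7 was high where the sum of the mesenchymal markers was high. The 4 animals with the higher FGF7 were control 3 and 4 and norepinephrine 1 and 4, and their mesenchymal sums were 800.9, 784.2, 730.7 and 1900 FPKM. The other 4 were control 1 and 2 and norepinephrine 2 and 3, with sums of 508.1, 578.7, 362.7 and 378.5. Within the first set the order did not follow, since norepinephrine 4 had the highest sum and the lowest FGF7 of the 4. Among the single markers, COL1A1 and COL1A2 broke the split. Control 2, with the lowest FGF7 of all animals, had 119.2 and 127.6 FPKM of them, and control 4, with the highest FGF7, had 114.3 and 104.3. The other matched markers kept the split. It was noticed after the values were seen, and the part of mesenchymal RNA in the FGF7 values was not tested.

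FGF12 (chromosome 1, 193142836 to 193556001) stood at 12.5, 23.8, 24.5 and 13.1 FPKM in controls and at 11.2, 24.5, 13.8 and 16.8 with norepinephrine. Control 2, control 3 and norepinephrine 2 were between 23.8 and 24.5 and the other animals between 11.2 and 16.8. The log2 difference was -0.14 (95% interval -0.79 to 0.52, limma adjusted p = 0.921), with -0.75 within prefix 09 and 0.59 within prefix 10. KLB (chromosome 6, 58501896 to 58533344) stood at 0.355, 0.284, 0.507 and 0.602 FPKM in controls and at 0.197, 0.914, 0.684 and 1.13 with norepinephrine. Norepinephrine 2, 3 and 4 exceeded every control and norepinephrine 1 was the lowest of the 8, and the log2 difference was 0.34 within prefix 09 and 0.37 within prefix 10. The means were 0.731 ± 0.400 and 0.437 ± 0.144 (log2(FPKM + 1) difference 0.24, exact permutation two-sided p = 0.286), and in a limma fit without the abundance filter the adjusted p was 0.809.

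**Figure D3:**
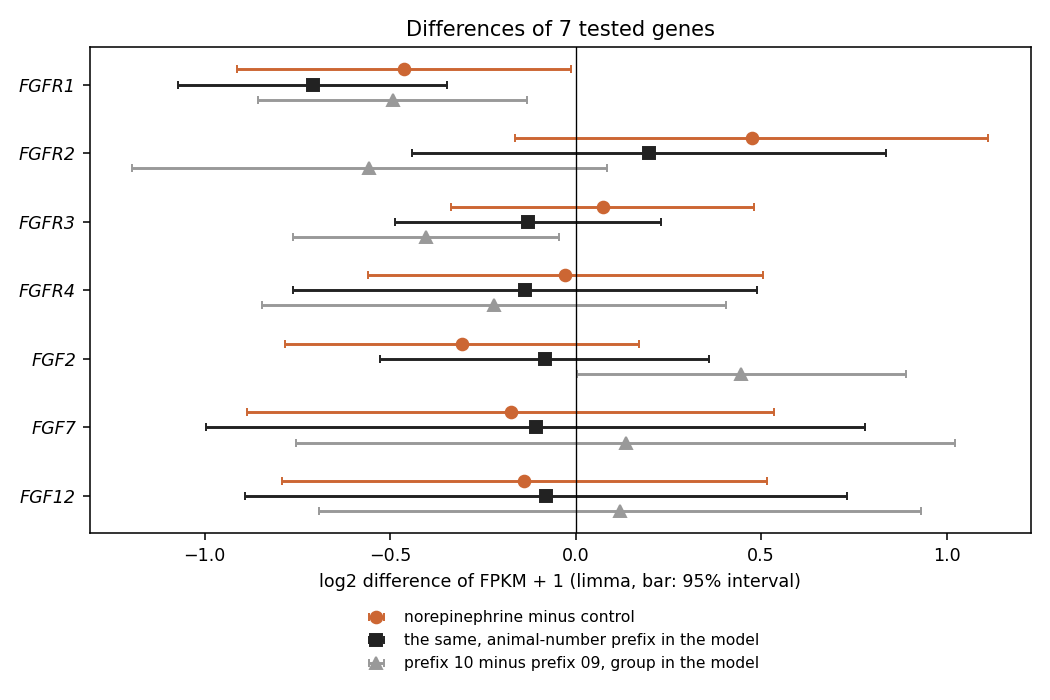
Log2 differences of FPKM + 1 (x axis) for the 7 tested genes, with 95% limma intervals: norepinephrine minus control in orange, the same with the animal-number prefix in the model in black, and prefix 10 minus 09 in grey. The FGFR1 interval moves from -0.91 to -0.01 to -1.07 to -0.35 when the prefix enters, and the black intervals of the other 6 genes include 0.

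For prefix 10 against 09, limma with a treatment term called 0 of the 7 genes after adjustment, against 16.5% of all tested genes (6.06% higher and 10.4% lower in 10). The prefixes overlapped for all 7, while 25.4% of all genes showed no overlap. At an unadjusted p under 0.05 there were 3 of the 7 (FGFR1, FGFR3 and FGF2), against 34.6% of all genes. FGFR1 differed by -0.49 (10 minus 09, adjusted p = 0.0667), FGFR2 by -0.56 (adjusted p = 0.196) and FGFR3 by -0.40 (adjusted p = 0.109). With equal library totals these became -0.05, -0.17 and 0.04, while the median of all genes moved from -0.09 to 0.31. With equal upper quartiles they were -0.34, -0.42 and -0.25, beside a median of 0.05. The size of these receptor differences therefore moved with the scaling of all genes, and each receptor lay below the median of all genes in each scaling. Under equal totals 32.8% of all genes were called, 31.0% of all as higher in 10, and FGF2 was the 1 member called. FGFR1 passed without norepinephrine 1 (-0.56, limma adjusted p = 0.0317) and FGFR2 without norepinephrine 4 (-0.71, adjusted p = 0.0329). In those runs 2280 and 2242 of all 13252 tested genes were called.

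Other genes of the pathway were taken from 7 lists with 110 entries, of which 101 matched a row and 80 were tested. By limma 0 of the 80 passed after adjustment, and at an unadjusted p under 0.05 there were 3 higher (DUSP5, GPC3 and FOXA2) and 2 lower (EXT2 and FGF22), shares of the 80 near the 3.61% higher and 3.74% lower among all tested genes.

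Of 15 other FGF ligands, 6 were tested and 0 passed, with 3 higher and 3 lower means and a median of -0.03 (0.02 over all genes). FGF18 and FGF9 had the highest means of the 6, at 5.55 ± 2.26 and 7.05 ± 1.82 FPKM with norepinephrine and 6.95 ± 1.41 and 6.16 ± 1.98 in controls. FGF22, which is known as a presynaptic organiser in the brain, showed the largest difference, with 1.33, 1.66, 2.36 and 1.51 FPKM in controls and 0.940, 0.911, 0.141 and 1.27 with norepinephrine (log2 -0.61, limma adjusted p = 0.663, or -0.56 once the prefix was modelled). The FGF22 difference was -1.39 with a pseudocount of 0.01, and -0.40 without norepinephrine 3. Each norepinephrine animal was below each control, as for 2.35% of all tested genes. FGF3, FGF4, FGF6 and FGF19 were listed at 0 in all 8 animals. Of the endocrine ligands, FGF21 was below the abundance filter, with 0.403 ± 0.164 FPKM in controls and 0.472 ± 0.168 after norepinephrine. FGF23, named after its values were seen, was tested. It stood at 2.30 ± 1.68 FPKM in controls and 1.86 ± 0.754 with norepinephrine (log2 -0.13, limma adjusted p = 0.937, or -0.63 once the prefix was modelled).

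The close relatives of FGF12 and the sodium channel subunits had 8 tested genes of 12, 0 past the threshold, 2 higher and 6 lower means and a median of -0.14. FGF14, another intracellular family member, was more abundant than FGF12, at 56.3 ± 13.9 FPKM with norepinephrine and 63.9 ± 6.56 in controls. SCN3A, the pore-forming subunit Nav1.3, stood at 11.0, 6.50, 15.0 and 12.8 in controls and at 4.38, 13.1, 4.73 and 5.21 with norepinephrine, where norepinephrine 2 lay among the controls (log2 -0.72, limma adjusted p = 0.681). The SCN3A difference was -0.18 with the number prefix in the model.

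Coreceptors and genes of heparan sulfate had 20 tested genes of 28, 0 past the threshold, with 13 higher and 7 lower means and a median of 0.16. The syndecans SDC4 and SDC2, cell-surface proteoglycans, were the most abundant. Their norepinephrine means were 198.1 ± 33.1 and 131.4 ± 35.7 FPKM and their control means 219.2 ± 22.4 and 115.5 ± 30.8. KL, the Klotho coreceptor of FGF23, showed the largest difference, with 3.52, 0.691, 1.26 and 1.58 FPKM in controls and 1.91, 7.13, 2.77 and 2.54 with norepinephrine (log2 0.71, limma adjusted p = 0.704). The KL difference was 1.23 with the number prefix and 1.41 with gestational age as covariate, and 0.39 without norepinephrine 2. Control 1 exceeded 3 of the 4 norepinephrine animals for KL. EXT2, a heparan sulfate polymerase named after its values were seen, stood at 53.0 ± 7.45 with norepinephrine and 73.7 ± 11.2 in controls (log2 -0.46, or -0.53 once the prefix was modelled).

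Transduction genes of the RAS-ERK cascade had 18 tested genes of 20, 0 past the threshold, with 10 higher and 8 lower means and a median of 0.03. The adaptor GRB2 stood at 178.9 ± 17.0 FPKM in norepinephrine animals and 185.8 ± 19.0 in controls. CBL, a ubiquitin ligase that removes activated receptors, had the largest difference, at 4.19 ± 2.31 and 6.66 ± 3.40 (log2 -0.49, limma adjusted p = 0.799). That difference was 0.22 with the number prefix in the model.

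Feedback inhibitors and ERK target genes had 10 tested genes of 13, 0 past the threshold, with 3 higher and 7 lower means and a median of -0.20. DUSP5, a nuclear phosphatase of ERK (chromosome 22, 29958471 to 30018452), stood at 23.4, 23.4, 14.1 and 22.2 FPKM in controls and at 24.7, 34.1, 48.8 and 37.2 with norepinephrine. All 4 norepinephrine animals were above all 4 controls, as for 1.88% of all tested genes. The log2 difference was 0.76 (SE 0.23, 95% interval 0.24 to 1.28, limma adjusted p = 0.544), and 0.68 once the number prefix was modelled (adjusted p = 0.402). In the 2 most abundant genes of the list the groups overlapped. ETV1, an ETS factor induced by FGF signals, stood at 57.1 ± 44.3 with norepinephrine and 58.2 ± 26.5 in controls, and SPRED2, a sprouty-related inhibitor, at 26.5 ± 4.23 and 32.2 ± 4.19. The ETV1 difference turned from -0.16 to 0.63 when the number prefix was modelled.

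Of the PDX1 and beta-cell list, 11 of 13 genes were tested and 0 passed, with 8 higher and 3 lower means and a median of 0.21. PCSK2, a prohormone convertase, stood at 530.1 ± 74.8 FPKM in norepinephrine animals and 459.5 ± 164.1 in controls, and UCN3, urocortin 3, at 933.9 ± 246.5 and 627.7 ± 184.5 (log2 0.57, limma adjusted p = 0.675). The UCN3 difference was 0.41 with the number prefix and 0.059 with gestational age as covariate, and 0.95 in male fetuses only. Pancreatic progenitor genes had 7 tested genes of 9, 0 past the threshold, with 6 higher and 1 lower mean and a median of 0.13. FOXA2 stood at 50.6 ± 4.86 and 37.9 ± 10.3, and GATA6 at 3.32 ± 1.18 and 1.99 ± 1.03 (log2 0.55, limma adjusted p = 0.704). With the number prefix modelled the differences were 0.35 for FOXA2 and 0.47 for GATA6, and with gestational age as covariate GATA6 was at 0.25.

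**Figure D4:**
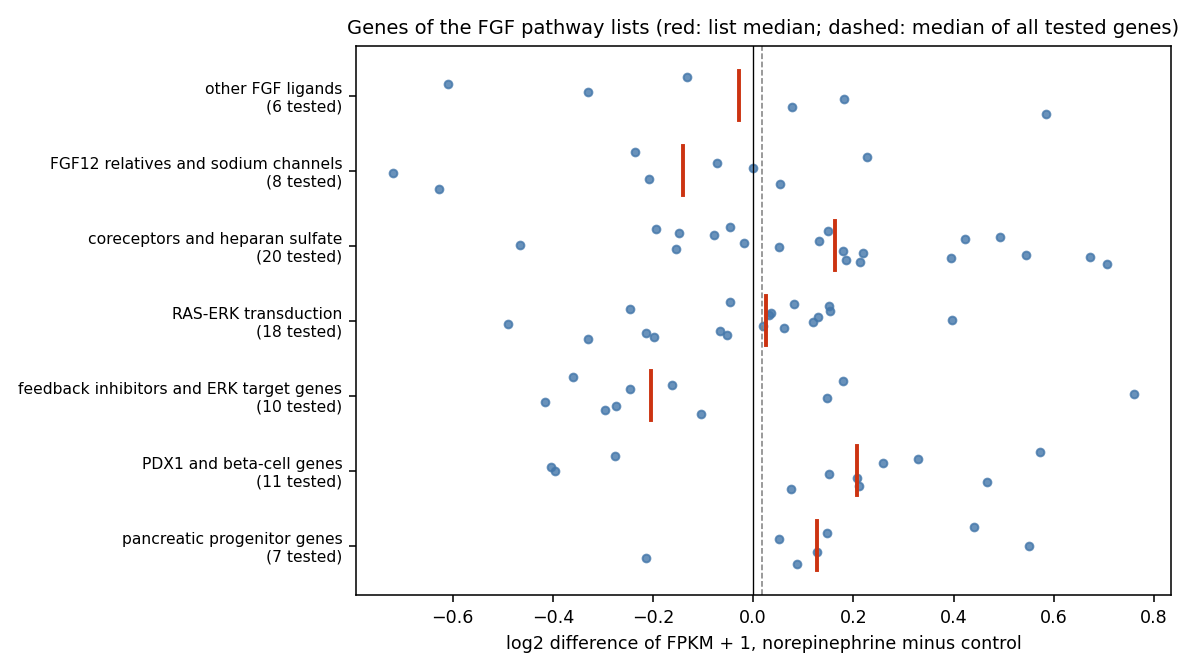
Log2 difference of FPKM + 1, norepinephrine minus control (x axis), of each tested gene in the 7 pathway lists (points), with the list median in red and the median of all 13252 tested genes dashed. List medians run from -0.20 for feedback inhibitors and ERK target genes to 0.21 for PDX1 and beta-cell genes, and DUSP5 at 0.76 is the point farthest to the right.

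The genes whose pattern over the 8 animals was most like each receptor were sought among 8964 named genes with a mean of at least 5 FPKM, after the mean of each number prefix was taken off. Highest Pearson correlations with FGFR1 were 0.991 for SNRPC and 0.973 for CENPB, and with FGFR2 0.988 for SYT4 and 0.984 for HERC1. LEAP2 (0.995) and FAM210B (0.970) were most like FGFR3, and OAS2 (0.928) and SH3PXD2A (0.921) most like FGFR4. These are the top values of a search over 8964 genes in 8 libraries that share treatment and depth differences, and they are given as a description only.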

How the data were processed

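RNA of hand-picked islets from 8 fetuses (4 per group) was selected for mRNA, built into libraries with a TruSeq RNA kit and read as 100 bp paired ends, per the labels' protocols. Per the submitters' processing notes, the tools were TopHat2 2.0.1, Cufflinks 2.1.1 and Cuffdiff, on build Oar_v3.1. No source used here gives the annotation or filters. The authors deposited 1 FPKM value per gene and animal, with no counts. Columns were matched by animal number (0 columns left out). Absolute depth is unknown. In low rows the most frequent FPKM ratio gave a depth relative to control 1 of 1.17 for control 3, 1.08 for control 4 and 1.01 for norepinephrine 2. For the other animals the ratio was ambiguous, so no counting interval was computed.

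Values were analysed as log2(FPKM + 1), which understates the change of low genes. The 13252 rows with a mean of at least 1 FPKM were fitted with limma 3.58.1 in R 4.3.3 (eBayes with trend, two-sided, Benjamini-Hochberg over all rows, threshold 0.05), and the code was tested on simulated data. Exact permutation tests over samples used all 70 splits (smallest p = 0.0286). Starts are raised by 1 to count from 1, and locus entries that hold several genes are not the limits of 1 gene. Members of lists are rows with exactly the symbol, of duplicates the one with the highest mean.

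The members and lists were chosen with earlier results of these data known. The rule for named genes took all members, PDX1, any list gene past the threshold (where none passed, the 2 most abundant of the list and the 1 with the largest difference), and for each receptor the 2 most alike genes. Some list genes that the rule takes are counted but not reported here. Alternatives covered the pseudocount, the abundance filter, scaling, the variance trend, covariates, male fetuses only, a replicate block and leaving out each animal. Replicate numbers belong to different animals.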

Additional observations from a re-analysis of the deposited data

Results flagged for a closer look

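In 52 groups of 4 animals (26 named genes in 2 groups), 7 held an animal whose gap to the nearest other exceeded Dixon's critical value for its share of the group's range, where chance flags about 1 in 20. Among the receptors these were FGFR2 in control 2, at 8.07 FPKM against 3.69 to 3.90 in the other controls, and FGFR4 in control 3, at 16.1 against 8.73 to 9.18. DUSP5 stood at 14.1 in control 3 against 22.2 to 23.4 and PDX1 at 211.2 in control 4 against 267.8 to 279.0. With norepinephrine, animal 2 stood apart for SCN3A, at 13.1 against 4.38 to 5.21, and for KL, at 7.13 against 1.91 to 2.77, and animal 3 for SPRED2, at 32.8 against 23.9 to 25.2. Control 2 is the only control numbered 09 and norepinephrine 2 the only norepinephrine animal numbered 10. The treatment difference of the 7 tested members was not shown to differ between the number groups (limma, lowest adjusted p of the difference 0.848).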

How the results depend on the processing

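Over 20 settings FGFR1 was lower (-0.73 to -0.29), FGF2 lower (-0.49 to -0.08) and FGFR2 higher (0.20 to 0.71) with norepinephrine, and none of the 7 tested members passed limma (lowest adjusted p = 0.259). Within prefix 09 alone, FGF2 was at 0.21 and FGFR2 at -0.18. KLB, below the filter, was run in 14 settings without covariates or block and was higher (0.13 to 0.54). FGFR3 turned to -0.078 with equal library totals, -0.13 with the number prefix and -0.14 with gestational age as covariate, and FGF12 to 0.063 in male fetuses only. PDX1 turned to -0.078 with equal totals and -0.028 with the prefix, and CBL to 0.22 with the prefix and 0.31 with gestational age. With equal totals the median of all genes moved as well, from 0.017 to -0.12. The cause of the turns of these genes was not tested. Leaving out 1 animal, FGFR3 ran from -0.037 to 0.18, FGFR4 from -0.11 to 0.17, FGF7 from -0.39 to 0.036, FGF12 from -0.34 to 0.020 and PDX1 from -0.015 to 0.16. The runs over PDX1 and the other list genes were added after seeing the data. Genes called with norepinephrine numbered 1 with equal totals, 1 with the prefix and 1 in male fetuses only, and 0 to 2 leaving out 1 animal. At an unadjusted p under 0.05 the count was 975 by limma and 957 without the trend.

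Between number prefixes, 4346 genes were called with equal totals against 2187, and 18 (without control 2, which leaves no control numbered 09) to 2280 leaving out 1 animal. The share of higher calls moved from 803 of 2187 to 4109 of 4346 with equal totals. There FGFR3 turned to 0.040 and FGFR4 to 0.19, and FGF2 passed (0.86), beside a median of 0.31 over all genes. Leaving out 1 animal, FGFR1 ran from -0.69 to -0.30, FGFR2 from -0.93 to -0.18, FGFR4 from -0.66 to 0.22, FGF7 from -0.59 to 0.86 and FGF12 from -0.55 to 0.79. Of the 28 pairs of levels, 23 to 24 were separated.

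With the replicate block, 0 genes were called and FGFR1 kept -0.46 (limma adjusted p = 0.970). Deviations of same-numbered animals correlated at -0.16, -0.38, -0.03 and 0.09. Same-numbered animals always differed in prefix, so these values cannot settle whether the numbers pair the animals.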

Other observations

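Across the 80 tested genes of the pathway lists, 18 (22.5%) differed between the number prefixes with treatment in the model, beside 16.5% of all tested genes by limma. Of the 18, 11 were higher and 7 lower in animals numbered 10, while among all tested genes 6.06% were higher and 10.4% lower. The direction of such calls depended on the scaling, with 803 of 2187 higher over all genes and 4109 of 4346 under equal library totals. ETV1, an ETS factor of ERK signalling, stood at 25.8 to 45.7 FPKM in the 4 animals numbered 09 and at 52.5 to 122.4 in those numbered 10 (log2 1.58, limma adjusted p = 0.0129). CBL stood at 1.75 to 3.75 and at 7.10 to 9.35 (log2 1.42, adjusted p = 0.0110), and SCN3A at 4.38 to 6.50 and at 11.0 to 15.0 (log2 1.09, adjusted p = 0.0110). These 3 genes were picked from those that differed. Their number groups did not overlap, which 25.4% of all tested genes shared. All 7 tested members overlapped between the number groups, and that count was not tested against the share of all genes.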
